A study of Mus musculus with 6 samples.

Results

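Cell cycle and proliferation genes, 40 in all, were followed in RNA from mouse stomach. They were found by symbol in a table of 23550 genes, and all 40 were present. Riclin libraries came from stomachs of mice given Riclin, a soluble dietary fibre, by gavage at 20 mg/kg for 14 days (3 libraries, replicates 2, 3 and 4). Saline libraries came from mice given normal saline by gavage over the same time (3 libraries, replicates 1, 2 and 4). The experiment held 20 mice. The labels used here leave out strain, age, sex, stomach region and whether each library is 1 animal, so a p-value here speaks to the spread among these 6 libraries, which may be technical. The protocols also describe a separate ethanol experiment, and whether these mice received ethanol is not stated. Levels are FPKM, fragments counted for a gene per kilobase of its length and scaled to the size of the library. In RNA from a whole stomach, fewer dividing cells and less of a transcript per dividing cell cannot be told apart.

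Dividing cells express these genes in waves. D-type and E-type cyclins with their kinases start S phase, MCM helicases and their loaders license and open replication origins, and cyclin B with CDK1 drives mitosis. In the stomach most division takes place in the isthmus of the gastric glands and in the basal layer of the squamous forestomach, and the daughters leave the cycle as they mature into surface, neck, parietal or other cells. Many mitotic genes are repressed in resting cells by the DREAM complex, which binds a promoter element called the CHR, often beside CCAAT boxes bound by NF-Y. Many S phase genes carry sites for E2F factors.

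Promoter sequence was available for 31 of the 40 members from RefSeq (GRCm38.p6, 250 bases before the start and 50 bases after it). It was searched on both strands for 3 strings. The box bound by NF-Y was searched as CCAAT, which reads ATTGG on the opposite strand. The CHR-type string was TTTGAA, which reads TTCAAA on the opposite strand. The E2F-type string was TTGGCGC, which reads as its reverse complement on the opposite strand. CCAAT was found in 23 of 31 members (74.2%), against 37.9% of all 27025 promoters of that length. TTTGAA was found in 13 of 31 (41.9%), against 18.1% of all promoters, and each of these 13 also held CCAAT. Of the 13, 12 belong to the mitotic and spindle members. TTGGCGC was found in 8 of 31 (25.8%), against 2.54% of all promoters, and 5 of the 8 are licensing and replication members. In 2 members a CCAAT match and a TTGGCGC match shared bases. A match is a description of these windows and not evidence of binding. The 5 stretches below are shown because they set 3 mitotic promoters beside 2 helicase promoters. Each is the 170 bases before the start, 5′ to 3′ on the strand of the gene, with matches to the 3 strings in capitals (Top2a chr11:99024190-99024359, minus strand; Kif11 chr19:37376212-37376381, plus strand; Cdc20 chr4:118437344-118437513, minus strand; Mcm5 chr8:75109339-75109508, plus strand; Mcm6 chr1:128359706-128359875, minus strand).
Top2a: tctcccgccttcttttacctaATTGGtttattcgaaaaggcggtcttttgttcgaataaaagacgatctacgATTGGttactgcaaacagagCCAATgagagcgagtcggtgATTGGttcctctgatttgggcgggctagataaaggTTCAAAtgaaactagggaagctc
Kif11: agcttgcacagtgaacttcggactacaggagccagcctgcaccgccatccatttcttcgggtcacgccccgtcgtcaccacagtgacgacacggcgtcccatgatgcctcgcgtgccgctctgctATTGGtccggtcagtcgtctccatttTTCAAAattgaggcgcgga
Cdc20: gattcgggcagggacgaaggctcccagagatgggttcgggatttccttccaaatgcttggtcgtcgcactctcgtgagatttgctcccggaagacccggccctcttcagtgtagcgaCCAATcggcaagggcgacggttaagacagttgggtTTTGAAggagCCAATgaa
Mcm5: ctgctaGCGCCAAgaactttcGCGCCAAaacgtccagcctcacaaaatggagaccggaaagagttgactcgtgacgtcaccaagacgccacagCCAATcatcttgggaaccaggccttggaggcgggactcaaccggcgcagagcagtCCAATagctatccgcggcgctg
Mcm6: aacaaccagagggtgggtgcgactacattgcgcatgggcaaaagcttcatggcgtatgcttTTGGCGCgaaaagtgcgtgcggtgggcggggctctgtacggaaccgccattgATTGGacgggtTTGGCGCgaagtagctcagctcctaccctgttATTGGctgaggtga

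The first 3 stretches each hold a TTTGAA match and at least 1 CCAAT match, and Top2a holds 4 of the second kind. The helicase stretches hold 2 CCAAT and 2 TTGGCGC matches each and no TTTGAA.

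The proliferation genes were expressed at low to moderate levels in every library, and none differed between Riclin and saline stomachs past the adjusted threshold. Most had slightly lower means in Riclin, and in most members 1 library, Riclin replicate 2, had the lowest value. Of the 40 members, 39 reached an FPKM of 1 in 3 or more libraries and were tested by limma on log2(FPKM + 1) across 11738 genes. The untested member was Ccne2. By limma 0 of 39 passed a Benjamini-Hochberg adjusted p of 0.05, where the background was 0% of all genes tested, and the smallest adjusted p was 0.841, for Mki67. At an unadjusted p under 0.05, limma called 0 of 39 members, beside a background of 5.9% of all genes tested, and voom on the recovered reads called 0, beside 6.33%. The fold change was below 0 for 33 of 39 members, against 38.7% of all genes tested. With median-of-ratios scaling, which moves the median of all genes by less than 0.1, 37 of 39 members were below 0, against 50.2% of all genes, and 4 members (Ccnd1, Mki67, Plk1 and Tyms) were lower at an unadjusted p under 0.05, beside 7.92% of all genes in either direction and 4.14% with Riclin lower. The same 4 were lower at that p with upper-quartile scaling, beside 8.15% of all genes in either direction and 3.8% with Riclin lower. They were also lower with acinar genes removed before scaling, beside 7.54% in either direction and 4.33% with Riclin lower. The median log2 fold change was -0.12 over the members, ranging between -0.23 and 0.12, and 0.04 over all genes. The 95% intervals of all 39 lay between -0.86 and 0.53 on that log2 scale. The scale understates differences of genes with low FPKM. The groups did not overlap in 4 members, 10.3% of those tested, each lower in Riclin, against 11.2% of all genes tested in either direction and 3.02% with Riclin lower.

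**Figure D1:**
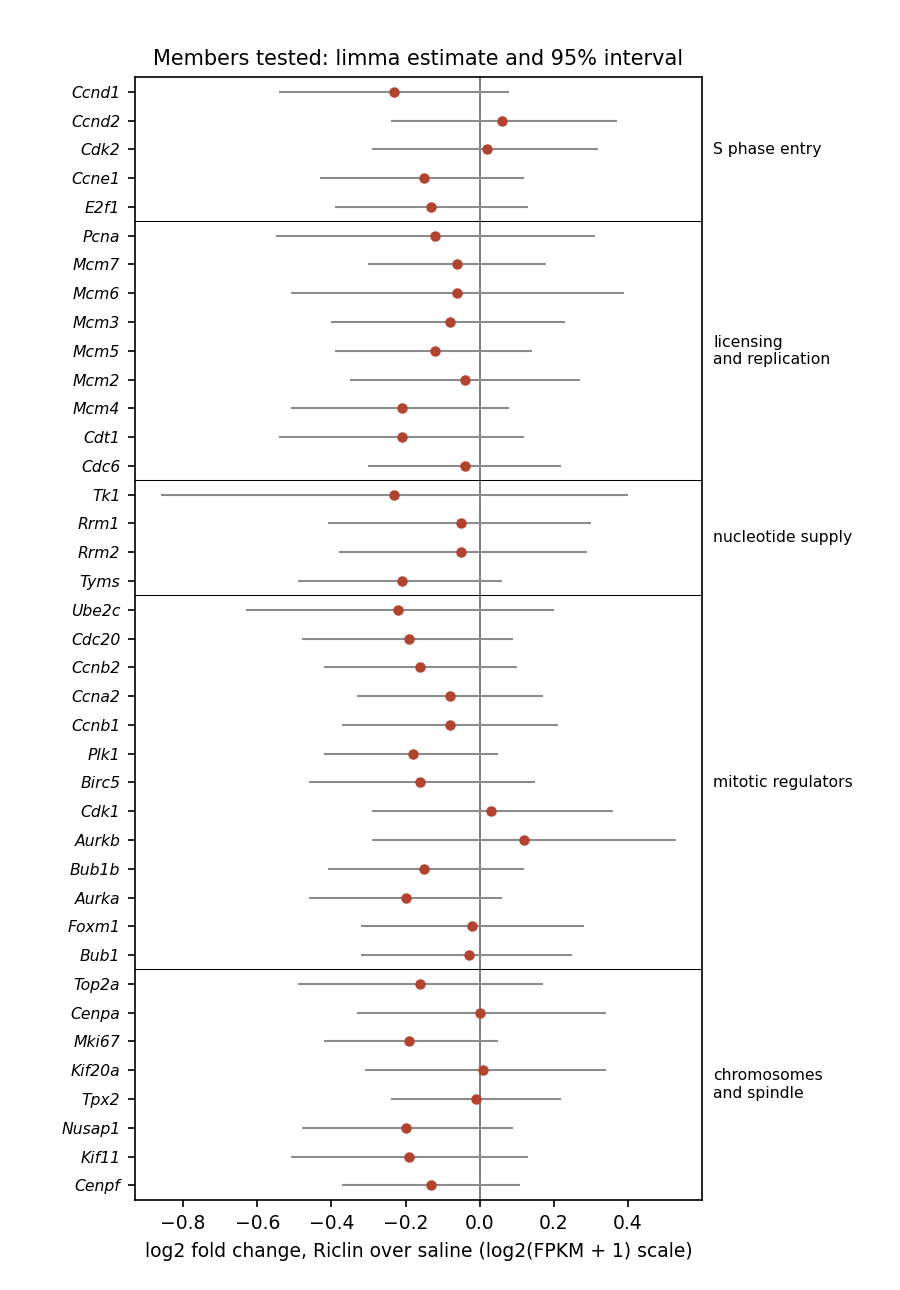
Log2 fold change of Riclin over saline (x axis, log2(FPKM + 1) scale) for the 39 members tested, in rows by role. Points are limma estimates and bars 95% intervals, and every interval includes 0.

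The libraries differed little in depth, with totals implied by the values of 30884067 to 40050267 reads, and the members rested on 54 to 4857 reads per gene and library. Summed over the 40 members, FPKM was 247.7, 314.9 and 281.3 in Riclin replicates 2, 3 and 4, against 310.5, 287.9 and 319.6 in saline replicates 1, 2 and 4. The members held 0.0799, 0.0984 and 0.0870% of reads in the Riclin libraries, against 0.0968, 0.0899 and 0.0988% in the saline libraries. The 95% Wilson interval of the lowest share, in Riclin replicate 2, was 0.0790 to 0.0808%, which covers counting error only. Libraries also differed in tissue content. The parietal genes Atp4a and Atp4b and the surface genes Muc5ac and Tff1 were detected in all 6. Fold changes were above 0 in 5 of 5 parietal genes (median log2 fold change 0.34) and 2 of 2 chief cell genes tested (median 0.59), against 61.3% of all genes. They were below 0 in 6 of 6 surface and neck genes (median -0.19), against 38.7%. By limma 0 of these genes passed the adjusted threshold. The summed level of 19 pancreatic acinar genes was 98822, 139.1 and 93091 FPKM in Riclin and 35479, 145706 and 136523 FPKM in saline, with Cpa1, Amy2a5, Spink1 and Gp2 among the genes at 0 in at least 1 library. The 3 antral genes summed to 428.7, 399.7 and 7.74 FPKM in Riclin and 1052, 693.6 and 959.7 FPKM in saline. The part of this content in the values of the proliferation genes was not tested.

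Mki67, the nuclear antigen Ki-67 that coats mitotic chromosomes and marks cycling cells, measured 5.77, 6.98 and 5.89 FPKM in Riclin replicates 2, 3 and 4, against 7.27, 7.29 and 7 FPKM in saline replicates 1, 2 and 4. Every Riclin value lay below every saline value, by a narrow margin in Riclin replicate 3. The means were 6.21 ± 0.666 FPKM in Riclin and 7.19 ± 0.162 FPKM in saline (SD, n = 3 each). Its log2 fold change was -0.19 with an interval of -0.42 to 0.05 (limma adjusted p = 0.841). It lies on chromosome 7 from 135689784 to 135716361 on the minus strand. Top2a, the topoisomerase that untangles replicated chromosomes, lies on chromosome 11 from 98992943 to 99024189 on the minus strand. It measured 8.22, 11.6 and 10.8 FPKM in Riclin, against 10.8, 10.7 and 12.9 FPKM in saline. Its groups overlapped, with Riclin replicate 2 lowest and saline replicate 4 highest, and its log2 fold change was -0.16 (interval -0.49 to 0.17). Nusap1, a protein that bundles spindle microtubules, measured 2.75, 3.81 and 2.98 FPKM in Riclin, against 3.47, 4.11 and 3.76 FPKM in saline. Here Riclin replicate 3 lay among the saline values. Cenpa, the histone that marks centromeres, measured 8.07, 10.4 and 10.5 FPKM in Riclin and 9.50, 11.2 and 8.26 FPKM in saline. Cenpa averaged 9.67 FPKM in Riclin and 9.66 FPKM in saline, and the direction of its fold change of 0.00 turned with the scaling, at -0.041 with median-of-ratios factors. Of the other chromosome and spindle members, the motor Kif11 ranged between 2.24 and 3.82 FPKM over the 6 libraries, the motor Kif20a between 3.67 and 5.09, the spindle assembly factor Tpx2 between 3.22 and 3.79 and the kinetochore protein Cenpf between 0.812 and 1.12. Cenpf was another member without overlap, lower in each Riclin library (log2 fold change -0.13, limma adjusted p = 0.882).

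**Figure D2:**
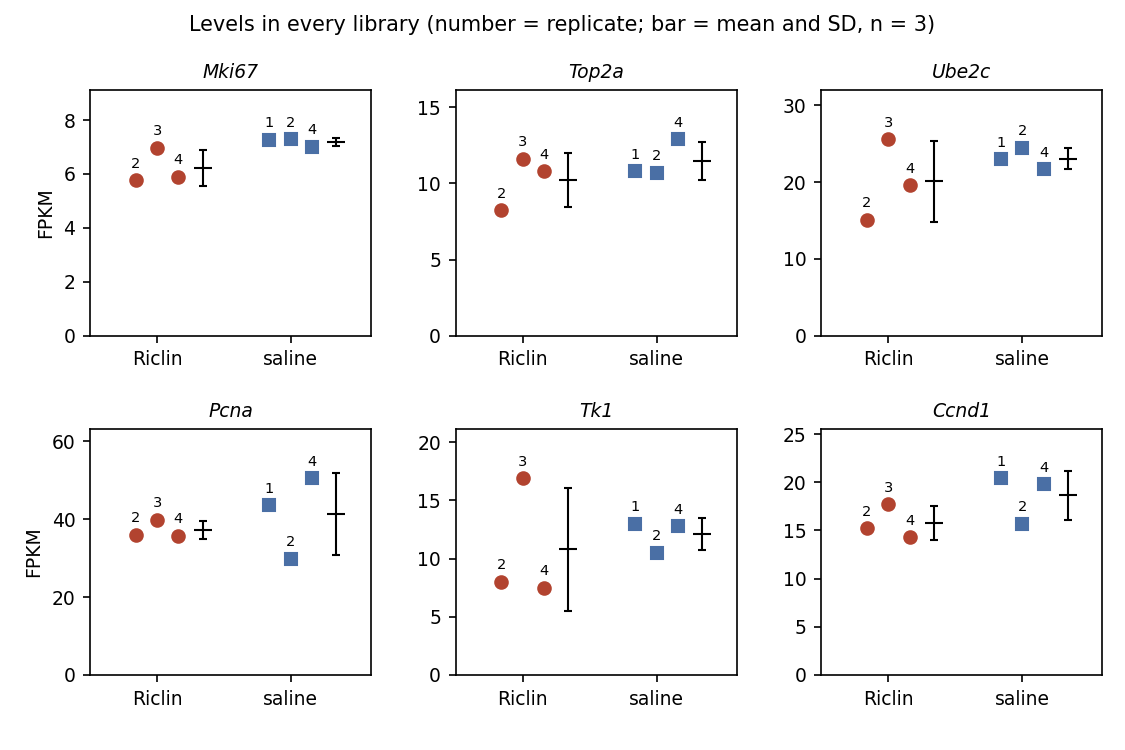
FPKM (y axis, starting at 0) of 6 members in each Riclin and saline library, with replicate numbers beside the points and the mean and SD of 3 libraries at the right of each group. Mki67 shows no overlap, and in Tk1 Riclin replicate 3 stands at 16.9 FPKM, above the other libraries.

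Among the mitotic regulators the highest level belonged to Ube2c, the enzyme that carries ubiquitin to the anaphase-promoting complex. It measured 15.1, 25.6 and 19.6 FPKM in Riclin, against 23.0, 24.5 and 21.7 FPKM in saline. The Riclin libraries held both the lowest and the highest value, and the log2 fold change of -0.22 had an interval of -0.63 to 0.20. Cdc20, which activates that complex at anaphase, measured 8.88, 9.99 and 11.9 FPKM in Riclin and 12, 12.5 and 10.9 FPKM in saline. Ccnb2, a B-type cyclin, measured 8.15, 9.67 and 10.4 FPKM in Riclin and 10.5, 11.1 and 10.0 FPKM in saline. In both genes 1 Riclin library, replicate 4, reached into the saline range. Plk1, a kinase of mitotic entry and spindle poles, measured 5.14, 6.37 and 5.70 FPKM in Riclin, against 6.83, 6.67 and 6.39 FPKM in saline. Aurka, the spindle pole kinase Aurora A, measured 2.77, 3.74 and 3.46 FPKM in Riclin, against 3.80, 4.07 and 3.97 FPKM in saline. These 2 kinases were, with Mki67 and Cenpf, the members whose groups did not overlap, with log2 fold changes of -0.18 for Plk1 (interval -0.42 to 0.05) and -0.20 for Aurka (interval -0.46 to 0.06). Aurkb, the kinase of the chromosomal passenger complex, pointed the other way, at 3.13, 5.24 and 5.16 FPKM in Riclin and 3.98, 3.48 and 4.51 FPKM in saline. Riclin replicate 2 was lowest in Aurkb and the other 2 Riclin libraries highest, and the interval of its log2 fold change of 0.12 was -0.29 to 0.53. Birc5, the survivin subunit of the same complex, ranged between 3.48 and 5.23 FPKM. The kinase Cdk1 ranged between 3.40 and 5.22 FPKM, its partner Ccnb1 between 5.74 and 8.12 and Ccna2, the cyclin of S phase and G2, between 6 and 7.68. The checkpoint kinases Bub1 and Bub1b and the transcription factor Foxm1 ranged between 1.07 and 1.55, between 3.09 and 4.11 and between 1.88 and 2.73 FPKM. Over the 13 mitotic regulators the median log2 fold change was -0.15, with 11 below 0, and over the 8 chromosome and spindle members it was also -0.15, with 6 below 0.

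Pcna, the sliding clamp of DNA polymerases and the highest of the 40 members, measured 36, 39.9 and 35.7 FPKM in Riclin, against 43.6, 29.9 and 50.5 FPKM in saline. The saline libraries held both the lowest and the highest value. The means were 37.2 ± 2.33 FPKM in Riclin and 41.3 ± 10.5 FPKM in saline (SD, n = 3 each), with a log2 fold change of -0.12 (interval -0.55 to 0.31). It was 0.04 without saline replicate 4 and -0.33 without saline replicate 2. Mcm7, a subunit of the replicative helicase, measured 9.83, 10.1 and 10.8 FPKM in Riclin and 10.0, 10.2 and 12 FPKM in saline, a nearly flat profile apart from saline replicate 4. Mcm6 of the same ring measured 7.56, 11.8 and 7.24 FPKM in Riclin and 9.45, 7.41 and 10.6 FPKM in saline, with Riclin replicate 3 highest. Mcm4 measured 4.41, 4.47 and 4.94 FPKM in Riclin and 5.33, 4.66 and 6.65 FPKM in saline, with 1 saline library, replicate 2, inside the Riclin range (log2 fold change -0.21, interval -0.51 to 0.08). The remaining subunits Mcm2, Mcm3 and Mcm5 lay between 5.13 and 8.69 FPKM, and the loading factors Cdt1 and Cdc6 between 2.85 and 4.66 and between 1.43 and 1.92 FPKM. All 9 licensing and replication members had fold changes below 0, with a median of -0.08. Saline replicate 4 was the highest library in 6 of the 9 (66.7%), against 11.1% of all genes tested. Saline replicate 1 was highest in 0 of the 9. Both of these saline libraries held more B cell transcripts than the others, though only 2 of the 6 B cell genes passed the filter. The 6 B cell genes summed to 3.32, 4.44 and 2.20 FPKM in Riclin and to 23.3, 3.33 and 22.4 FPKM in saline. The 5 T cell genes summed to 2, 2.82 and 3.16 FPKM in Riclin and 8.81, 4.32 and 12.4 FPKM in saline. Intestinal epithelium is another dividing tissue, but the intestinal genes listed did not share a pattern over the libraries. The 6 intestinal genes summed to 152.1, 226.4 and 138.4 FPKM in Riclin and 519.8, 435.3 and 640.1 FPKM in saline, without overlap. Clca1 made the largest part of that sum, at 77, 115.4 and 117.8 FPKM in Riclin and 362.5, 302.8 and 365.0 FPKM in saline. In Riclin replicate 4, where Clca1 was 117.8 FPKM, Fcgbp was 0.63 FPKM and Alpi 0.146 FPKM. Clca1 and Fcgbp, 2 of the 5 intestinal genes tested, did not overlap between groups. Both were lower in Riclin, against 3.02% of all genes tested. Alpi, Fabp2 and Vil1 overlapped. Cdx2 did not overlap either, but it was below the filter and not tested. Vil1 was highest in Riclin replicate 3, at 39.2 FPKM. Saline replicate 4 was highest in the intestinal phosphatase Alpi, at 42 FPKM against at most 2 FPKM elsewhere, and in the intestinal transcription factor Cdx2, at 2.08 FPKM against at most 0.349 FPKM. The part of lymphoid cells or intestinal tissue in the levels of the licensing genes was not tested.

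Tk1, the thymidine kinase that salvages thymidine for DNA synthesis, varied most between libraries among the members tested. It measured 8.03, 16.9 and 7.48 FPKM in Riclin, against 13.0, 10.5 and 12.8 FPKM in saline. Riclin replicate 3 was highest and the other 2 Riclin libraries lowest, 2.26-fold apart at the extremes. The log2 fold change of -0.23 had the widest interval of the members, -0.86 to 0.40. Rrm1 and Rrm2 encode the subunits of ribonucleotide reductase, which makes deoxyribonucleotides. Rrm1 measured 7.89, 12.3 and 9.36 FPKM in Riclin and 10.5, 9.40 and 10.5 FPKM in saline. Rrm2 measured 5.18, 7.70 and 6.12 FPKM in Riclin and 5.96, 7.26 and 6.34 FPKM in saline. As in Tk1, Riclin replicate 3 was highest in Rrm1 and Rrm2. The lowest library was Riclin replicate 2 in Rrm1 and Rrm2 and Riclin replicate 4 in Tk1. Tyms, the thymidylate synthase, measured 2.58, 3.30 and 2.41 FPKM in Riclin and 3.31, 3.59 and 3.13 FPKM in saline (log2 fold change -0.21, interval -0.49 to 0.06). The 4 nucleotide genes had a median log2 fold change of -0.13, which was -0.007 without Riclin replicate 2, -0.035 without Riclin replicate 4 and -0.260 without Riclin replicate 3.

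Ccnd1, the D-type cyclin that couples growth signals to the cycle, measured 15.2, 17.7 and 14.3 FPKM in Riclin, against 20.4, 15.7 and 19.8 FPKM in saline. The groups overlapped through saline replicate 2, and the log2 fold change was -0.23 (interval -0.54 to 0.08). Its relative Ccnd2 measured 15.4, 14.7 and 11.9 FPKM in Riclin and 15, 12 and 13.1 FPKM in saline. Cdk2, the kinase partner of E-type cyclins, measured 7.02, 8.71 and 8.51 FPKM in Riclin and 9.09, 8.14 and 6.76 FPKM in saline. Neither gene separated the groups, with log2 fold changes of 0.06 for Ccnd2 (interval -0.24 to 0.37) and 0.02 for Cdk2 (interval -0.29 to 0.32). The direction for Cdk2 turned with median-of-ratios scaling, at -0.026. The E-type cyclin Ccne1 ranged between 1.30 and 1.94 FPKM and the transcription factor E2f1 between 1.11 and 1.70 FPKM. Ccne2 measured 0.956, 0.836 and 0.622 FPKM in Riclin and 0.584, 0.460 and 0.845 FPKM in saline, on 54 to 116 reads. The 5 tested members of this group had a median log2 fold change of -0.13, with 3 below 0. It was -0.078 without Riclin replicate 4 and turned to 0.017 with a filter at an FPKM of 5.

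Riclin replicate 2 was the lowest of the 6 libraries in 29 of 39 members tested (74.4%), against 16.4% of all genes tested. Of the 21 mitotic and spindle members it was lowest in 20, the exception being Foxm1, and of the other 18 it was lowest in 9. The median deviation of the members from their 6-library mean was -0.21, 0.06 and -0.02 in Riclin replicates 2, 3 and 4 and 0.06, 0.04 and 0.09 in saline replicates 1, 2 and 4 (log2 scale). Over all genes tested it was -0.03, 0.10 and -0.00 in Riclin and 0.06, -0.08 and -0.04 in saline. The mitotic and spindle members alone deviated by -0.24, 0.05 and 0.05 in Riclin and by 0.05, 0.07 and 0.06 in saline. With median-of-ratios scaling, which brings all genes to within 0.01 of 0 in every library, they deviated by -0.21, -0.03 and 0.06 in Riclin and by -0.01, 0.15 and 0.10 in saline. On that scale Riclin replicate 3 lay below all 3 saline libraries and Riclin replicate 4 among them. Riclin replicate 2 was then lowest in 23 of 39 members (59%), against 15.6% of all genes, and in 18 of the 21 mitotic and spindle members. Without Riclin replicate 2 the median log2 fold change of all members was -0.05, with 25 below 0 and 14 above, and that of the mitotic and spindle members was -0.04. The median of the members thus kept its sign without that library and moved toward 0. Over all genes tested the median was 0.040 with every library and 0.064 without Riclin replicate 2, with 33.5% of them then below 0. Which members passed an unadjusted limma p of 0.05 depended on the library left out. Without Riclin replicate 3 they were Mki67, Nusap1, Tk1, Tyms and Ube2c, each lower in Riclin, beside 5.84% of all genes in either direction and 3.43% with Riclin lower. Without saline replicate 2 they were Ccnd1, Cdt1, Mcm4 and Pcna, each lower, beside 6.45% in either direction and 2.79% lower. Without Riclin replicate 4 it was Cdc20, lower, beside 4.8% in either direction and 1.54% lower. Without Riclin replicate 2 it was Aurkb, higher, beside 4.86% in either direction and 3.53% higher. In all, 38 of 39 members stayed within a 2-fold range over the 6 libraries (97.4%), against 86.9% of the 11696 genes tested that were above 0 in every library, and the median ratio of highest to lowest library was 1.44 for members and 1.41 for those genes.

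**Figure D3:**
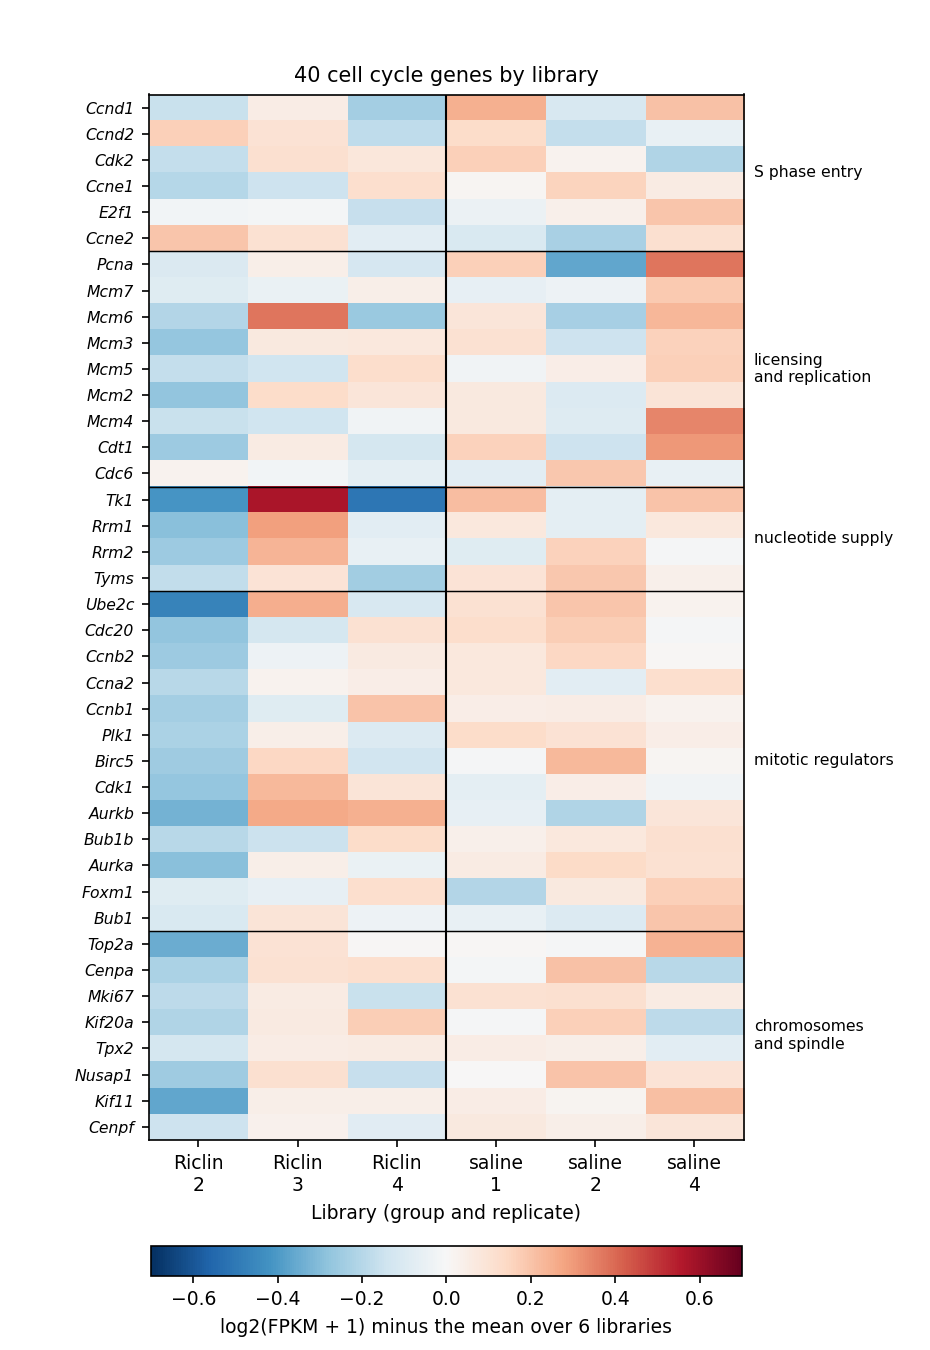
Log2(FPKM + 1) of each of the 40 members (rows, by role) in each library (columns, Riclin left of saline), as the difference from the member's mean over 6 libraries. The column of Riclin replicate 2 is low through nearly all mitotic and spindle rows, and Riclin replicate 3 is high in Tk1, Rrm1, Rrm2 and Mcm6.

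**Figure D4:**
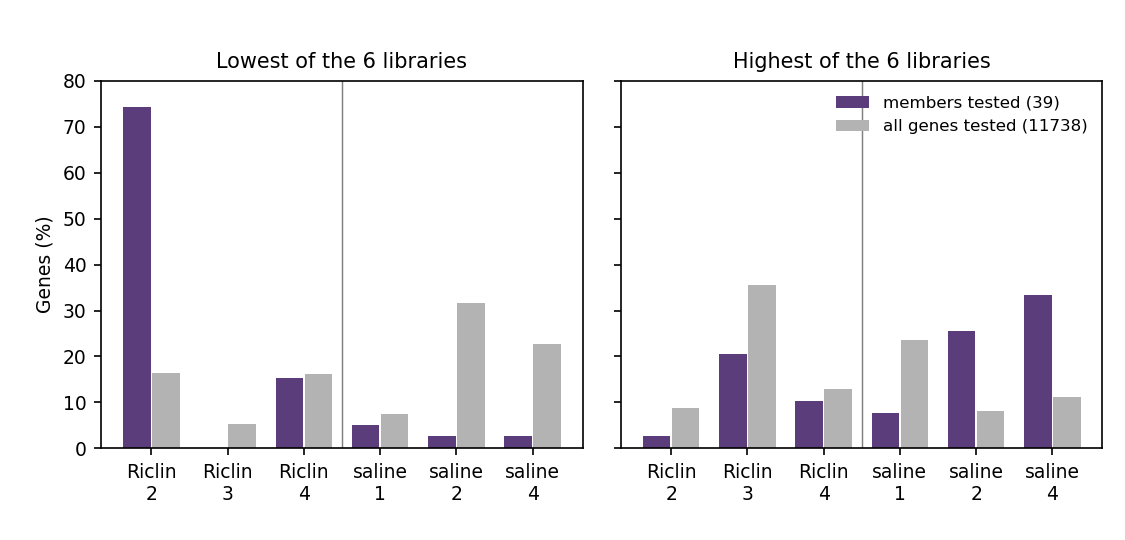
Share of genes (y axis, percent) for which each library was the lowest (left) or the highest (right) of the 6, for the 39 members tested and all 11738 genes tested. Riclin replicate 2 was lowest in 74.4% of members and 16.4% of all genes.

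The acinar sum of Riclin replicate 2, 98822 FPKM, lay between those of the other libraries. So did its antral sum of 428.7 FPKM, most of it Gast at 420.1 FPKM. Among surface and neck genes Riclin replicate 2 was lowest in Muc6, at 23.5 FPKM, and not in Muc5ac, Tff1, Gkn1, Gkn2 or Tff2. Among intestinal genes it was lowest in Clca1, at 77 FPKM, and not in the others. Genes of the squamous forestomach, whose basal layer divides, summed to 524.1, 544.3 and 405.7 FPKM in Riclin and 99.1, 447.8 and 301.7 FPKM in saline over 13 genes. The basal keratin Krt5 measured 41.9, 27.8 and 33.6 FPKM in Riclin, against 10.8, 30.8 and 22.6 FPKM in saline. Krt14 measured 34, 23.7 and 27.1 FPKM in Riclin, against 5.95, 22.6 and 15.3 FPKM in saline. By the sum over 13 genes the 2 richest libraries were Riclin replicates 2 and 3. These had the lowest and the second highest sum of the proliferation genes. By either basal keratin the 2 richest were Riclin replicates 2 and 4, with the lowest and the second lowest sum of the proliferation genes. What sets the level in Riclin replicate 2 was not tested.

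Other genes of the cycle were examined beside the members in 4 lists, of which 136 genes were in the table and 119 were tested. None passed the adjusted threshold by limma. At an unadjusted p under 0.05 limma called 2 higher and 7 lower in Riclin, 9 of 119, beside a background of 4.07% higher and 1.83% lower over all genes. Among other S phase genes 4 of 37 were lower and 0 higher (median log2 fold change -0.11), and among other mitosis genes 3 of 56 were lower and 0 higher (median -0.06). Riclin replicate 2 was the lowest library in 48.6% of the S phase list and 53.6% of the mitosis list, against 16.4% of all genes. Without it the medians were -0.050 for the S phase list and 0.008 for the mitosis list, against 0.064 over all genes tested. Without Riclin replicate 3 they were -0.201 for the S phase list and -0.100 for the mitosis list, and a filter at an FPKM of 5 put the mitosis list at -0.177. Hmgb2, a chromatin protein abundant in dividing cells, measured 17.2, 20.7 and 15.8 FPKM in Riclin, against 25.3, 25.1 and 24.7 FPKM in saline (log2 fold change -0.47, interval -0.74 to -0.20, limma adjusted p = 0.691). Mad2l1, the spindle checkpoint protein MAD2, measured 5.67, 5.66 and 5.58 FPKM in Riclin, against 7.53, 7.49 and 6.92 FPKM in saline (log2 fold change -0.32, limma adjusted p = 0.699). The groups did not overlap in either gene, and the lowest library was Riclin replicate 4 in both. The 4 genes named in each direction were picked by smallest p, so separation of the groups largely follows from that choice. Of the 119 genes, 5 had no overlap with Riclin higher and 11 with Riclin lower. Over all genes tested the shares were 8.14% and 3.02%. The replication fork protein Tipin measured 2.99, 2.98 and 3.29 FPKM in Riclin and 3.88, 4.45 and 3.96 FPKM in saline. The kinase subunit Cks1b measured 10.5, 12.1 and 12.9 FPKM in Riclin and 13.6, 17.3 and 14.7 FPKM in saline. Neither Tipin nor Cks1b overlapped between groups, and their limma adjusted p was 0.758 and 0.791.

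On the higher side, Myc, a transcription factor of growth, measured 10.1, 9.86 and 12.5 FPKM in Riclin, against 8.87, 7.73 and 7.72 FPKM in saline (log2 fold change 0.37, limma adjusted p = 0.774). Cdkn2b, the CDK4 and CDK6 inhibitor p15, measured 53.9, 63.4 and 65.3 FPKM in Riclin, against 48.3, 52.0 and 41.8 FPKM in saline (log2 fold change 0.36, limma adjusted p = 0.791). Both genes, also picked by smallest p, separated the groups without passing the threshold. The phosphatase Cdc25a and the kinase Wee1, which act against each other on CDKs, had log2 fold changes of 0.19 and 0.30. Cdc25a measured 15, 14.6 and 14.3 FPKM in Riclin, against 12.3, 13 and 12.8 FPKM in saline, without overlap. Wee1 measured 10.2, 9.44 and 9.68 FPKM in Riclin, against 9.49, 6.80 and 7.25 FPKM in saline, with saline replicate 1 inside the Riclin range. The inhibitor p21 (Cdkn1a) measured 94.3, 120.0 and 88.8 FPKM in Riclin and 117.8, 95.5 and 90.4 FPKM in saline, and its log2 fold change of -0.01 had an interval of -0.39 to 0.38. Cdkn1b (p27) measured 9.29, 10.8 and 9.10 FPKM in Riclin and 10.3, 8.68 and 8.86 FPKM in saline, with a log2 fold change of 0.06. Cdkn1c (p57) measured 6.17, 5.86 and 8.72 FPKM in Riclin and 8.76, 7.59 and 4.94 FPKM in saline, with a log2 fold change of -0.02. None of these 3 inhibitors separated the groups. Over 9 tested inhibitors and pocket proteins the median was -0.02, and over 17 other G1 regulators it was 0.12, with 12 above 0 (70.6%), against 61.3% of all genes tested. The median of the G1 regulators was 0.069 without Riclin replicate 2, 0.070 with acinar genes removed and 0.013 with a filter at an FPKM of 5, and that of the inhibitors was 0.107 without saline replicate 1.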

How the data were processed

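The authors deposited 1 table of FPKM values for 23550 gene symbols in 6 libraries of mouse stomach RNA. TRIzol extraction and the VAHTS Universal V6 library kit are named in the labels' protocols. The submitters' processing notes list Bowtie2 and mm10 without saying how either was used. Counting tool, annotation and strand use: not given in the sources used here. Groups came from the treatment label and replicate numbers from the titles.

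Whole reads were recovered from the ratios of the FPKM values between libraries, within a relative tolerance of 1e-09, for 23548 genes, with gene lengths taken as whole within 0.01 bases. They gave depth and counting intervals. The test took the 11738 genes that reached an FPKM of 1 in 3 or more of the 6 libraries. It was done by limma 3.58.1 (R 4.3.3) with an intensity trend on log2(FPKM + 1), two-sided, adjusted by the Benjamini-Hochberg method. The scripts were tested on simulated data. Positions are from GENCODE on GRCm38, the assembly that mm10 names. The members and gene lists were chosen with earlier results of these data known, so lists are described by counts and medians with no list test. Values in every library are printed for the 3 members of each of 5 role groups with the highest mean FPKM, the 8 members with the smallest p, and Mki67, Top2a and Pcna, and from the other lists for the 4 genes in each direction with the smallest p, with Cdkn1a, Cdkn1b and Cdkn1c always named. Aurkb, Ccne2, Krt5, Krt14, Alpi, Cdx2, Clca1, Fcgbp, Gast, Muc6 and Vil1 were added after their values were seen. The alternatives were a pseudocount of 0.1, no filter or a filter at an FPKM of 5, 3 other scalings, a robust prior, voom on recovered reads, a replicate block and each library left out in turn. Python 3.11.15 and matplotlib 3.10.9 made the plots.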

Additional observations from a re-analysis of the deposited data

How the results depend on the processing

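None of the 39 members passed the adjusted threshold by limma under any of the 15 alternatives, and the members' median log2 fold change stayed below 0 in all of them. It ranged between -0.169 and -0.053 with 1 library left out, the second without Riclin replicate 2, and was -0.139 with a pseudocount of 0.1, -0.084 with a filter at an FPKM of 5, which leaves 21 members, and -0.138 with voom. With the replicate block it was -0.170, with 0 members past the threshold. Saline replicate 1 and Riclin replicate 3 have numbers found in only 1 group, so they do not enter that estimate. It compares replicates 2 and 4 alone, and a count of 0 there says little. The labels give only numbers 2 and 4 in both groups and do not say what a number marks. Deviations of same-numbered libraries correlated at 0.22 and 0.01, so no pairing was assumed. Median-of-ratios scaling moved the median to -0.156, upper-quartile scaling to -0.151 and removal of acinar genes to -0.163. Over all genes the split at an unadjusted p under 0.05 was 478 higher and 215 lower in Riclin, against 444 higher and 486 lower under median-of-ratios factors. The smallest adjusted p of a member in any alternative was 0.445 by limma, for Tk1 without Riclin replicate 3.

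Over all genes limma called 2 past the adjusted threshold with a robust prior, 0 with the settings of the report and 0 to 1 with a library left out. Members without overlap between groups numbered 4 in the report, 2 with the filter at 5, 7 under median-of-ratios factors and 5 to 11 with a library left out, where smaller groups overlap less by construction. The share over all genes was counted only with the settings of the report, at 11.2%. The other counts thus have no background beside them and are not read as results about the members. Fold changes near 0 turned sign. Cdk2 was -0.026, -0.015 and -0.034 with median-of-ratios scaling, upper-quartile scaling and acinar genes removed, and Cenpa -0.041, -0.030 and -0.049. With the block Cenpa was -0.056 and Cdkn1c 0.225, and with voom Cenpa was -0.001. With 1 library left out the log2 fold change ranged between -0.007 and 0.169 for Ccnd2, -0.086 and 0.103 for Cdk2, -0.329 and 0.038 for Pcna, -0.106 and 0.015 for Mcm7, -0.259 and 0.057 for Mcm6, -0.208 and 0.080 for Rrm1, -0.177 and 0.069 for Rrm2, -0.095 and 0.116 for Cenpa, -0.135 and 0.107 for Cdkn1a, -0.009 and 0.131 for Cdkn1b, and -0.228 and 0.131 for Cdkn1c. The causes were not tested.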
